A study of Mus musculus with 8 samples.

Results

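S100 proteins, annexins and galectins were described in regulatory T cells (Tregs) from mouse spleen, sorted by surface TNFR2, the receptor for TNF encoded by Tnfrsf1b. The list of 10 genes (S100a4, S100a6, S100a10, S100a11, S100a13, Anxa2, Anxa5, Anxa6, Lgals1 and Lgals3) was chosen with earlier results of these data known. All 10 were found among the 20172 identifiers of the table of normalized counts. Both groups came from the spleens of adult female Foxp3 YFP-cre mice, in which the Foxp3 gene drives Cre and a yellow fluorescent protein, so the same reporter allele is carried by both. CD4 T cells were enriched and YFP-positive cells were separated into TNFR2+ and TNFR2− Tregs, with 4 libraries of each (replicates 1 to 4) and no treatment. The labels do not say whether the replicates were separate mice, so p values measure the spread between these libraries only.

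S100 proteins are small EF-hand calcium sensors that work as dimers and bind target proteins when calcium rises. Annexins bind acidic phospholipids in the presence of calcium, and Anxa2 pairs with S100a10 in a heterotetramer at the plasma membrane that organizes actin and membrane repair. Galectins bind beta-galactoside sugars on glycoproteins and can cross-link them at the cell surface. In T cells, S100a4, S100a6, S100a10, S100a11, Anxa2, Lgals1 and Lgals3 are commonly read as genes of activated, effector or memory cells.

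TNFR2+ Tregs had higher levels of 5 of the 10 genes and lower levels of 0 (limma, adjusted p under 0.05), and the same fit called 7.91% of the 13990 tested genes, 4.52% higher and 3.39% lower. The 5 genes were S100a6, S100a11, Lgals1, Anxa2 and S100a10, with ratios of group means from 1.85 to 4.72. The count was 3 (S100a6, S100a10 and S100a11) in 5 of the 8 fits that left out a library, those without TNFR2+ replicate 1, 2 or 3 or TNFR2− replicate 1 or 2, and 2 (S100a6 and S100a10) without an intensity trend in the moderated variances. Within each family the genes divided: S100a4 and S100a13, Anxa5 and Anxa6, and Lgals3 did not pass the test, also at an unadjusted p. By the exact two-sided permutation test on single genes, S100a6, S100a10, S100a11 and Lgals1 were at p = 0.0286, the smallest that 70 relabellings allow, Anxa2 was at 0.0571, and the other 5 were between 0.2 and 0.857. The median log2 fold change over the 10 genes was 0.96, against −0.01 over all tested genes. As earlier results of these data were known when the list was chosen, its count and median beside those of all genes are a description.

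The sum of the normalized counts of a library lay between 9576920 and 11492762. Tnfrsf1b, the gene of the sorting marker, was at 2501 ± 544 in the TNFR2+ group and at 1321 ± 168 in the TNFR2− group (normalized counts, SD, n = 4 each). The 8 Treg markers listed, Foxp3 among them, were all present, with a summed level of 28040 to 31970 in TNFR2+ and 21050 to 25650 in TNFR2− libraries, and 4 of them (Ikzf2, Ctla4, Cd3e and Tnfrsf18) were called higher, against 4.52% of all tested genes. Foxp3 was at 3126 ± 219 and 3664 ± 316 (adjusted p = 0.232 from limma) and Il2ra at 2742 ± 225 and 3482 ± 363 (adjusted p = 0.0860), in TNFR2+ and TNFR2− Tregs. TNFR2− replicate 3 stood apart on the second principal component of the log2 values, which held 16.7% of the variance, at 91.32 against −39.08 to 17.96 in the other libraries. It had the highest TNFR2− value in 5 of the 10 genes, and the fold change of each called gene is also given without it. Leaving it out raised all of these fold changes, while leaving out TNFR2− replicate 2 lowered them. Without TNFR2− replicate 2 the log2 fold change was 2.00 for S100a6, 1.40 for S100a11, 0.79 for S100a10, 0.90 for Anxa2 and 0.92 for Lgals1.

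Promoter sequences are shown for the pair of called genes from different families that shared a motif, S100a11 and Anxa2, and for the neighbours S100a6 and S100a4, of which only S100a6 was called. They are the 250 bases before the RefSeq start, on GRCm38.p6 and on the plus strand, at chr3:93520246-93520495 for S100a11, chr9:69453433-69453682 for Anxa2, chr3:90612644-90612893 for S100a6 and chr3:90603520-90603769 for S100a4. Capitals mark matches, on either strand, to the AP-1 motif TGANTCA, the TATA box TATAAA and the GC box GGGCGG, and no matches overlapped.
S100a11: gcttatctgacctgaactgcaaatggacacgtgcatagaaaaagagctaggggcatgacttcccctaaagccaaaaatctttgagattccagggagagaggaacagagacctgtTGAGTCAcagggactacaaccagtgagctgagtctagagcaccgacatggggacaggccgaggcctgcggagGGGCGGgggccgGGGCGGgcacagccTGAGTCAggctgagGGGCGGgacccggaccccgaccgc
Anxa2: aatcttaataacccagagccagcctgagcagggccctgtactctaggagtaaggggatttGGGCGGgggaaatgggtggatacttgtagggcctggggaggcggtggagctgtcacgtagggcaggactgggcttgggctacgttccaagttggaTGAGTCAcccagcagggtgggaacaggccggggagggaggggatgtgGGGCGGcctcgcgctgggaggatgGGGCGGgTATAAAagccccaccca
S100a6: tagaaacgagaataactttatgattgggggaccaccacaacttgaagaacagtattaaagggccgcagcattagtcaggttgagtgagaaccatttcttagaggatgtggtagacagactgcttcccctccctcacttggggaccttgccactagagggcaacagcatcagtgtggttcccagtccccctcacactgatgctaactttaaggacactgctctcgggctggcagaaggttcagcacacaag
S100a4: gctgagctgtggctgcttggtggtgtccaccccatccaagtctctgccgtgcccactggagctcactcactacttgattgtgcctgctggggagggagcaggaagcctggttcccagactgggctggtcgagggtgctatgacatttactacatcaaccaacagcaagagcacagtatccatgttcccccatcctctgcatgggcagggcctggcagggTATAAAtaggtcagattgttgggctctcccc
The AP-1 motif, bound by Fos and Jun factors, was found in the S100a11 window at 136 and 38 bases before the start and in the Anxa2 window at 95 bases. It was present in 6.75% of the 32851 mouse promoter windows, and at least 2 copies were present in 0.338%. Among the 7 genes with a promoter entry, these were the 2 with the motif, and the S100a6 window, of the gene with the largest called fold change, held none of the 3 motifs. The TATA box was present in the S100a4 and Anxa2 windows, 31 and 17 bases before the start, and in 12.4% of all windows. The GC box was present 3 times in each of S100a11 and Anxa2, once in Lgals3, and in 32.7% of all windows. S100a10, Anxa6 and Lgals1 had no entry.

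S100a6, which encodes calcyclin, a calcium sensor of dividing and migrating cells, had the largest fold change of the 5 called genes. Its normalized counts in TNFR2+ replicates 1 to 4 were 132.0, 175.6, 241.2 and 90.8. In TNFR2− replicates 1 to 4 they were 30.6, 20.3, 55.9 and 28.9. All TNFR2+ libraries lay above all TNFR2− libraries, which 8.08% of all tested genes also did in this direction. Group means were 160 ± 64.3 and 33.9 ± 15.4 (SD, n = 4 each), and limma gave a fold change of 2.21 on the log2 scale (standard error 0.41, 95% confidence interval 1.31 to 3.10, adjusted p = 0.00556). Without TNFR2− replicate 3 it was 2.48 (adjusted p = 0.00254). The gene lies on chromosome 3 of GRCm38 from 90612882 to 90624181.

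S100a11, a partner of Anxa1 and Anxa2 in membrane repair, had 749.9, 628.9, 662.0 and 378.8 normalized counts in TNFR2+ replicates 1 to 4. The TNFR2− replicates had 237.9, 122.0, 368.2 and 125.2. The groups were separate by a narrow margin, with TNFR2+ replicate 4 close above TNFR2− replicate 3. The means of 605 ± 159 and 213 ± 117 differed by 1.61 on the log2 scale (standard error 0.34, interval 0.88 to 2.35, adjusted p = 0.0111 from limma), or 1.92 (adjusted p = 0.00173) without TNFR2− replicate 3. With variances moderated without an intensity trend, the adjusted p was 0.0758. S100a11, on chromosome 3 from 93520488 to 93526287, has 5 annotated processed pseudogenes of at least 90% identity, the closest at 99.0% over 297 bases. Of these, S100a11-ps was listed at no more than 7.04 in any library, and the other 4 were not analysed here, so reads shared with them are uncertain.

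S100a10, also called p11, is the S100 protein that binds Anxa2 without calcium. It was the most even of the 5 called genes within its groups. The TNFR2+ replicates had 1803, 2035, 1864 and 1690 normalized counts, and the TNFR2− replicates 1037, 796, 1015 and 1146. The lowest TNFR2+ library was far above the highest TNFR2− library. Group means of 1848 ± 144 and 999 ± 147 differed by 0.90 on the log2 scale (standard error 0.14, interval 0.59 to 1.20, adjusted p = 0.00185 from limma), and 0.91 (adjusted p = 0.00283) without TNFR2− replicate 3. S100a10 lies on chromosome 3 from 93555080 to 93564643.

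S100a4, a regulator of myosin and cell motility, and S100a13, which takes part in release of proteins that lack a signal peptide, did not pass the test. S100a4 had 40.3, 62.9, 51.8 and 52.6 normalized counts in TNFR2+ replicates and 58.1, 21.2, 95.1 and 31.2 in TNFR2− replicates. The TNFR2+ values lay inside the TNFR2− range, and the means were 51.9 ± 9.25 and 51.4 ± 33.1. On the log2 scale the groups differed by 0.22 (standard error 0.48, interval −0.82 to 1.26, adjusted p = 0.834 from limma), which leaves room for changes of either sign. S100a4 shares 302 bases at 100% identity with Gm42674, a protein-coding gene on the same strand that overlaps it and was not analysed here, so its counts may be divided with that gene. S100a13 had 175.2, 246.6, 242.5 and 203.6 against 245.5, 105.1, 253.6 and 210.9 normalized counts. These groups overlapped, with TNFR2− replicate 2 below the rest, and they differed by 0.16 on the log2 scale (standard error 0.29, interval −0.47 to 0.78, adjusted p = 0.802 from limma).

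Anxa2, the annexin that S100a10 binds, was higher in TNFR2+ Tregs, with an overlap of 1 pair of libraries. Its normalized counts were 295.8, 349.6, 338.9 and 223.1 in TNFR2+ replicates 1 to 4. They were 152.1, 115.5, 231.7 and 114.0 in TNFR2− replicates 1 to 4. TNFR2− replicate 3 lay above TNFR2+ replicate 4, and every other pair was ordered the same way. Group means of 302 ± 57.4 and 153 ± 55.1 differed by 1.01 on the log2 scale (standard error 0.27, interval 0.43 to 1.60, adjusted p = 0.0364 from limma). Without TNFR2− replicate 3 it was 1.23 (adjusted p = 0.00862). The call held in 2 of the 8 fits that left out a library, those without TNFR2+ replicate 4 and without TNFR2− replicate 3, and the adjusted p reached 0.115 without TNFR2+ replicate 2. It was 0.0894 without the intensity trend. Anxa2 lies on chromosome 9 from 69453620 to 69491795, where an antisense gene, Gm16144, overlaps it and was not analysed here.

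Anxa5, which binds phosphatidylserine and serves as a stain for apoptotic cells, and Anxa6, the annexin with a doubled set of core repeats that acts in membrane traffic, did not pass the test. Anxa5 had 261.1, 332.0, 270.4 and 187.8 normalized counts in TNFR2+ and 275.4, 234.7, 238.1 and 335.0 in TNFR2− replicates. Anxa6 had 1786, 1918, 1579 and 1932 against 1871, 1886, 1797 and 2269. In both genes the groups overlapped and the highest value was TNFR2− replicate 4. The fold change on the log2 scale was −0.06 (standard error 0.23, interval −0.55 to 0.43, adjusted p = 0.918 from limma) for Anxa5 and −0.12 (standard error 0.12, interval −0.38 to 0.15, adjusted p = 0.635) for Anxa6. The upper bound for Anxa6 was below the estimates of all 5 called genes. Anxa5 lies on chromosome 3 from 36448923 to 36475894, apart from the S100 genes, and Anxa6 on chromosome 11 from 54979108 to 55033445.

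Lgals1 encodes galectin-1, a dimeric galectin known as an effector molecule of Tregs. It had 284.1, 354.7, 358.9 and 189.6 normalized counts in TNFR2+ replicates 1 to 4. In TNFR2− replicates 1 to 4 it had 112.3, 61.2, 165.4 and 186.2. The groups did not overlap, but TNFR2+ replicate 4 and TNFR2− replicate 4 were close. The means of 297 ± 79.3 and 131 ± 56.1 differed by 1.25 on the log2 scale (standard error 0.35, interval 0.50 to 2.00, adjusted p = 0.0439 from limma), and 1.40 (adjusted p = 0.0326) without TNFR2− replicate 3. The call held in 3 of the 8 fits that left out a library (without TNFR2+ replicate 4, TNFR2− replicate 3 or TNFR2− replicate 4), with an adjusted p of up to 0.127 without TNFR2+ replicate 2. It was also lost under quantile normalization, at an adjusted p of 0.0541, and without the intensity trend, at 0.122. Lgals1 lies on chromosome 15 from 78926725 to 78930465.

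Lgals3, the galectin with a collagen-like tail that forms lattices on glycoproteins, was low. It was listed at 20.6, 14.1, 29.4 and 6.97 normalized counts in TNFR2+ replicates and at 30.5, 0, 0 and 5.19 in TNFR2− replicates. The highest value was TNFR2− replicate 1 and the groups overlapped. The fitted value of 2.16 on the log2 scale (standard error 1.18, interval −0.38 to 4.71, adjusted p = 0.299 from limma) depends on the pseudocount, through the 2 libraries listed at 0, and no fold is read from it. Lgals3 lies on chromosome 14 from 47367751 to 47386160.

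**Figure D1:**
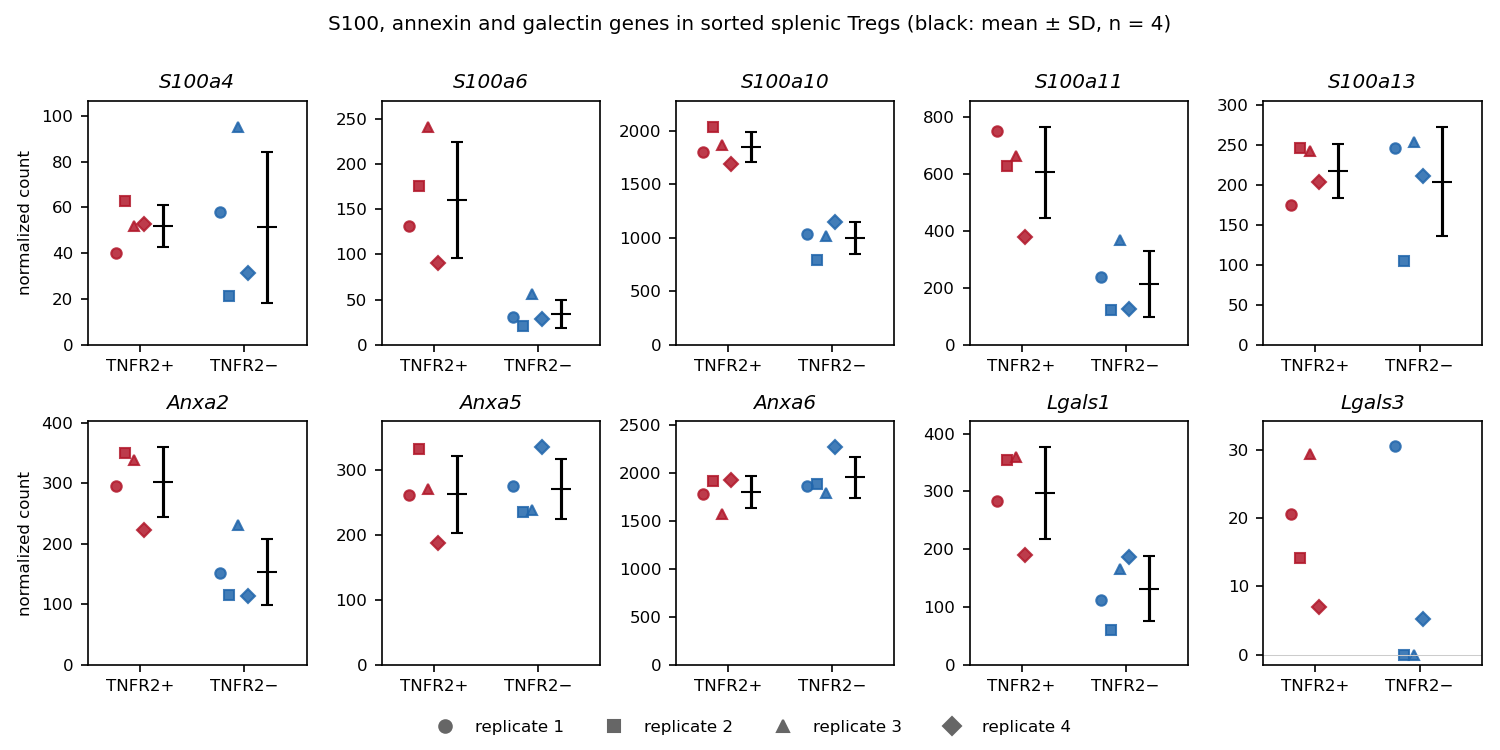
Normalized count (vertical axis, linear, a scale of its own for each gene) of the 10 genes in 4 TNFR2+ (red) and 4 TNFR2− (blue) libraries, with the marker shape giving the replicate. Black bars are mean ± SD (n = 4) and are left out for Lgals3, which is listed at 0 in 2 libraries. The groups are separate in S100a6, S100a10, S100a11 and Lgals1, 1 pair of libraries crosses in Anxa2, and the groups overlap in the other 5 genes.

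Some libraries were low or high in many of these genes. TNFR2+ replicate 4 had the lowest TNFR2+ value in 7 of the 10 genes and TNFR2− replicate 2 the lowest TNFR2− value in 7, while TNFR2+ replicate 2 was the highest of its group in 5. Summed over the 10 genes, the normalized counts were 5549, 6117, 5638 and 4956 in TNFR2+ replicates 1 to 4 and 4050, 3361, 4220 and 4452 in TNFR2− replicates 1 to 4. Each TNFR2+ sum was above each TNFR2− sum, and 8.08% of single tested genes were separate in the same way. The 5 called genes made up 2573 to 3544 of the TNFR2+ sums and 1114 to 1837 of the TNFR2− sums. The 10 genes took 0.0491% to 0.0594% of a TNFR2+ library and 0.0293% to 0.0403% of a TNFR2− library. Library sums were also separate, at 9576920 to 10295226 in TNFR2+ and 10483291 to 11492762 in TNFR2− libraries. The smaller divisor thus raised the TNFR2+ shares.

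Levels were compared between genes after division by the length of the longest annotated protein-coding transcript, as normalized counts per kilobase. Which transcripts the cells expressed was not used, so the order between genes may depend on this choice. In TNFR2+ Tregs S100a10 was the highest at 2698 ± 210 per kilobase, followed by S100a11 at 1184 ± 311, Anxa6 at 725 ± 65.9 and Lgals1 at 371 ± 99.1. S100a13 at 303 ± 47.4, S100a6 at 219 ± 88.0, Anxa2 at 209 ± 39.7, Anxa5 at 152 ± 34.2 and S100a4 at 104 ± 18.6 formed a run in which every neighbour overlapped the next, and Lgals3 was the lowest. S100a11 and Anxa6 also overlapped, as did Lgals1 and S100a13, so the steps without overlap were S100a10 over S100a11, Anxa6 over Lgals1 and S100a4 over Lgals3. In TNFR2− Tregs S100a10 was again the highest, at 1458 ± 215 per kilobase, and Anxa6, at 786 ± 85.5, came before S100a11, at 418 ± 228. All 4 TNFR2− libraries had Anxa6 above S100a11, whereas 3 of 4 TNFR2+ libraries had S100a11 above Anxa6. The order went on with S100a13 at 285 ± 95.6, Lgals1 at 164 ± 70.2, Anxa5 at 156 ± 26.9, Anxa2 at 106 ± 38.1, S100a4 at 103 ± 66.4 and S100a6 at 46.4 ± 21.0, and these neighbours overlapped. By its mean S100a6 was at rank 6 of 10 in TNFR2+ and at rank 9 in TNFR2− Tregs, but it was above Anxa2, next in the TNFR2+ order, in 1 of 4 TNFR2+ libraries.

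**Figure D2:**
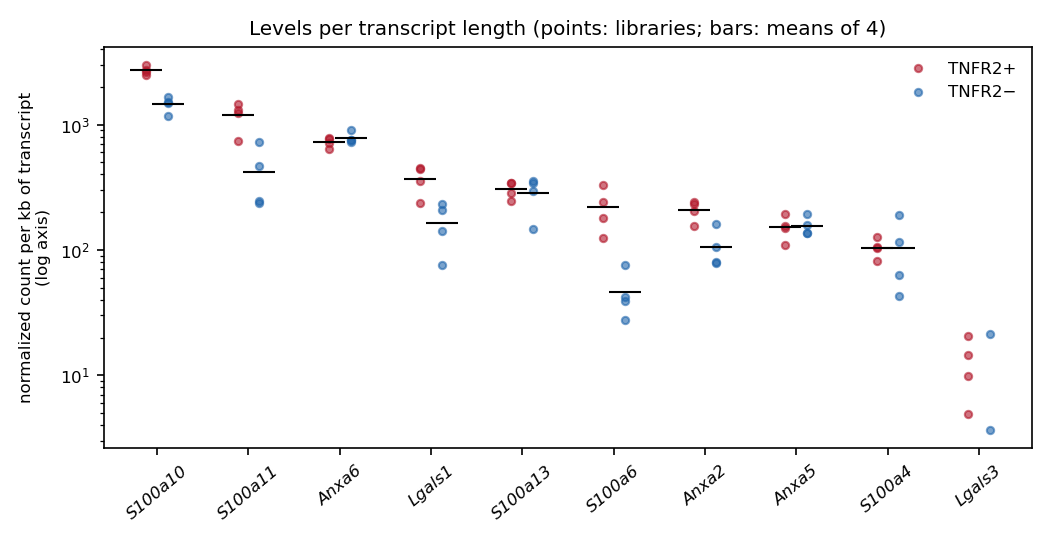
Normalized count per kilobase of transcript (vertical axis, log scale) of the 10 genes, ordered by the TNFR2+ mean. Points are libraries and bars are means of 4, and the 2 TNFR2− libraries with Lgals3 at 0 cannot be drawn, nor its means. S100a10 is the highest gene in both groups, and S100a6 shows the widest gap between them among the genes with means drawn.

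The table held 16 other S100, annexin and galectin genes, of which 9 were tested and 0 were called (limma), against 7.91% of all tested genes. At an unadjusted p under 0.05 there were 3 of the 9, against 3211 of all 13990 tested genes. Anxa11, an annexin of RNA granules and the early secretory pathway, was at 638 ± 86.5 and 427 ± 99.6, or 0.60 as a log2 fold change (adjusted p = 0.0822). The log2 fold changes of Anxa7 and Anxa4 were 0.68 and 0.53 (adjusted p = 0.167 and 0.313). S100a7a, at 41.3 ± 10.3 and 86.7 ± 26.0, was at −1.03 (adjusted p = 0.131), and S100a3 was at −0.60 (adjusted p = 0.687). Among galectins, the abundant Lgals9, a ligand of Tim-3, was at −0.19 (adjusted p = 0.623), Lgals8 at 0.25 (0.691), Lgals4 at −0.97 (0.232) and the galectin-like gene Lgalsl at 0.72 (0.542). The other 7 (S100a1, S100a9, S100a14, Anxa1, Anxa3, Anxa9 and Lgals7) had means under 10 and were not tested. S100a9, an abundant protein of neutrophils, was listed at 9.84 in TNFR2+ replicate 1 and at 0 in the other 7 libraries. Counting all tested genes of each family, 3 of 7 S100, 1 of 6 annexin and 1 of 6 galectin genes were called higher, against 4.52% of all tested genes. The family medians of the log2 fold change were 0.22, 0.57 and 0.48.

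**Figure D3:**
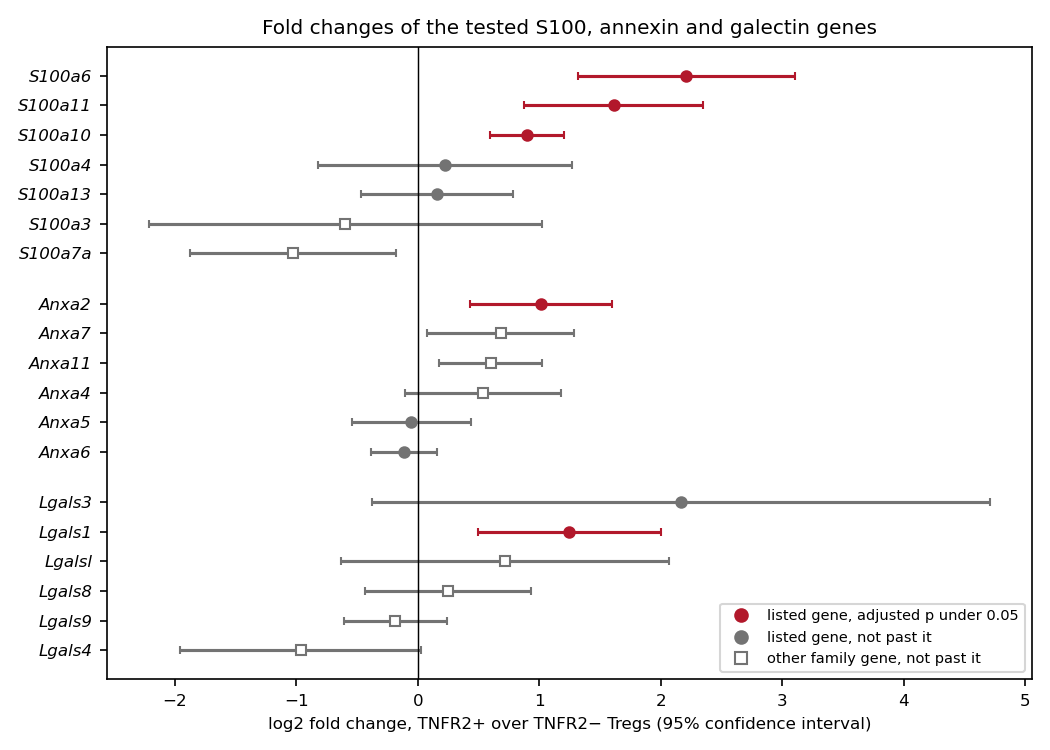
Log2 fold change of TNFR2+ over TNFR2− Tregs (horizontal axis, bars 95% confidence intervals) for the 19 tested S100, annexin and galectin genes, grouped by family. Filled circles are the 10 listed genes and open squares other family genes, with red for an adjusted p under 0.05. The 5 red intervals lie above 0, from S100a6 at 2.21 to S100a10 at 0.90.

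Ratios between genes of the same library need no scaling between libraries. S100a10 and Anxa2, the subunits of a complex, had a log2 ratio of 2.63 ± 0.20 in TNFR2+ and 2.75 ± 0.49 in TNFR2− Tregs (SD, n = 4). The difference was −0.12 (exact two-sided permutation test over 70 relabellings, p = 0.686). It turned to 0.07 without TNFR2− replicate 4 and was −0.32 without TNFR2− replicate 3. With 4 libraries per group, this does not show that the ratio was equal. In linear terms S100a10 was 6.25 ± 0.92 times Anxa2 in TNFR2+ and 7.04 ± 2.33 times in TNFR2− libraries, as normalized counts not divided by length. The other 4 pairs were chosen after their values were seen, to set a called gene against an uncalled one of its family, so their differences are given as a description.

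S100a6 over S100a4, genes whose starts lie less than 10 kb apart, had log2 ratios of 1.69, 1.47, 2.20 and 0.78 in TNFR2+ and −0.91, −0.06, −0.76 and −0.11 in TNFR2− replicates. As normalized counts not divided by length, S100a6 was above S100a4 in all TNFR2+ libraries and in none of the TNFR2− libraries. The mean log2 ratio of S100a11 over S100a13 was 1.44 ± 0.49 and −0.01 ± 0.55, with no overlap between groups. For Anxa2 over Anxa6 it was −2.59 ± 0.38 and −3.72 ± 0.59, and for Lgals1 over Lgals9 −0.74 ± 0.52 and −2.17 ± 0.81, each with an overlap through TNFR2+ replicate 4 and TNFR2− replicate 3.

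**Figure D4:**
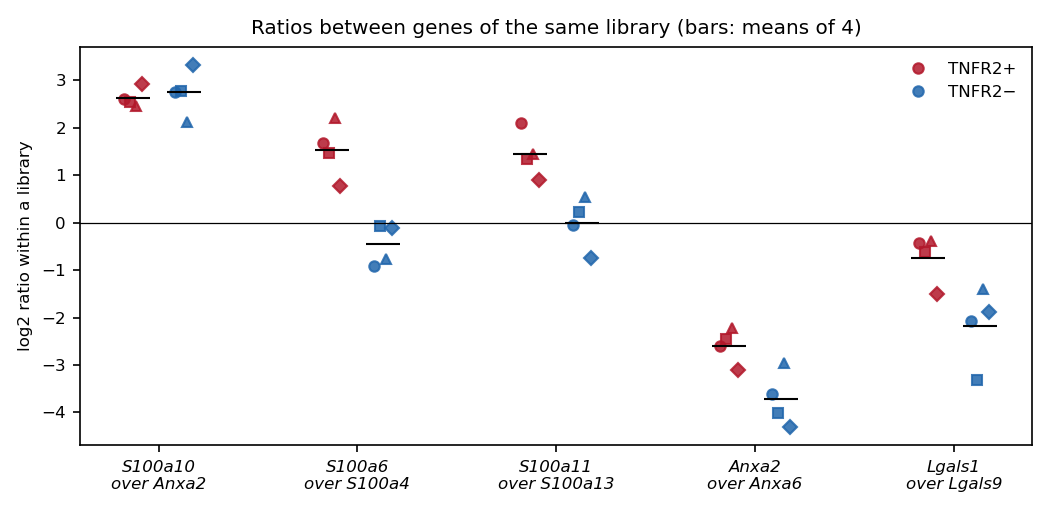
Log2 ratio of 2 genes within a library (vertical axis) for 5 pairs, in TNFR2+ (red) and TNFR2− (blue) Tregs, with bars for means of 4 and marker shapes for replicates 1 to 4 (circle, square, triangle, diamond). S100a10 over Anxa2 overlaps between the groups, and S100a6 over S100a4 and S100a11 over S100a13 are separate.

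All 5 listed S100 genes lie on chromosome 3, in the region from 90511034 to 93564643 that holds the S100 genes of the table and, between them, genes of skin cornification. In that region 7 S100 genes were tested and 3 were higher, against 4.52% of all tested genes. The 7 log2 fold changes had a median of 0.22 and a range from −1.03 to 2.21. Of the 6 other tested genes 0 were called (limma), against 7.91% of all tested genes, and their median was 0.07. At an unadjusted p under 0.05 there was 1 of the 6, against 3211 of all 13990 tested genes. Measured from the start of S100a13, S100a4 begins at 89.3 kb, S100a6 at 98.4 kb, S100a7a at 139.6 kb, S100a11 at 3006.1 kb and S100a10 at 3040.6 kb. The called S100a6 thus stood between S100a4 and S100a7a, which were not called, and S100a11 and S100a10 were at the far end.

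**Figure D5:**
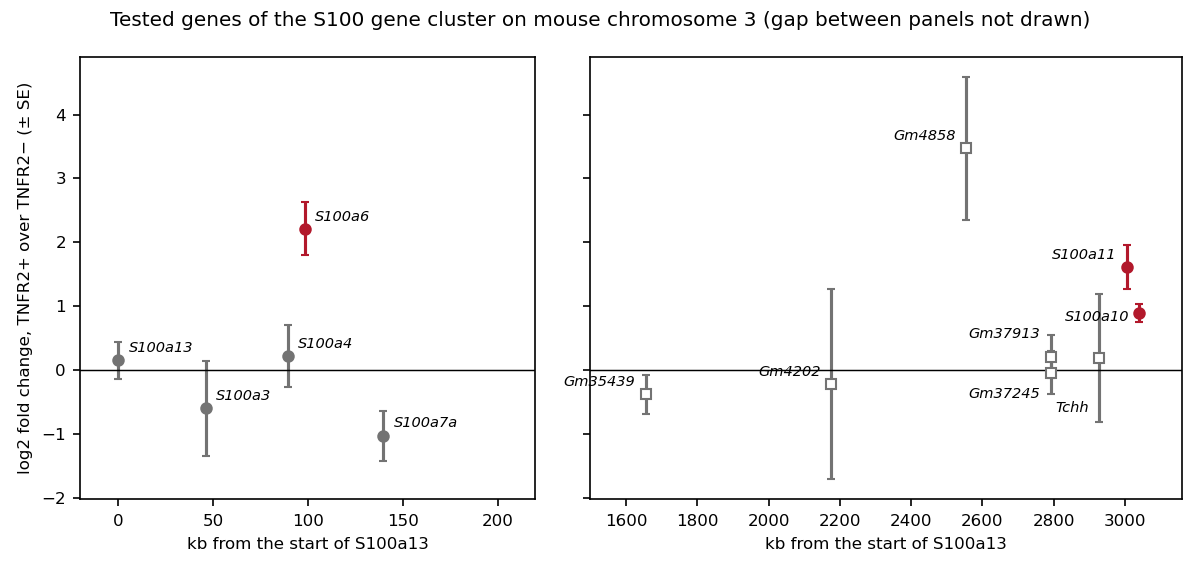
Log2 fold change of TNFR2+ over TNFR2− Tregs (vertical axis, bars ± standard error) of the tested genes of the chromosome 3 region, by distance in kb from the start of S100a13, with the stretch between the panels not drawn. Circles are S100 genes, squares other genes, and red marks an adjusted p under 0.05. S100a6 at 2.21 is called between neighbours that are not, and Gm4858 at 3.47 did not pass (adjusted p = 0.0771).

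For each gene, the tested gene with the nearest profile over the 8 libraries was sought among 10245 genes with a mean of at least 50, by the root-mean-square distance of log2 values centred on their mean. The distance was shortest for Anxa6, at 0.03 from Cd96, a receptor of T and NK cells. S100a10 was nearest to Spcs3, a signal peptidase subunit (0.07), S100a11 to Itgb8, an integrin that activates TGF-beta (0.13), and Anxa2 to Lmnb1, lamin B1 (0.13). S100a6 was nearest to the linker histone Hist1h1d (0.29) and Lgals1 to Gtpbp8 (0.22). S100a13 was nearest to Myb (0.08), Anxa5 to Dennd1c (0.09), S100a4 to Gm37447 (0.24) and Lgals3 to Ect2 (0.61). Among the 10 genes themselves, S100a10 and Anxa2 were nearest to each other, at 0.33, and so were Anxa5 and Anxa6, at 0.25, and S100a4 and S100a13, at 0.34. The median distance to all genes searched ran from 0.39 for Anxa6 to 1.92 for Lgals3, so genes that vary little lay near many others. It was 0.60 for S100a10, 0.72 for Anxa2, 0.44 for Anxa5, 0.71 for S100a4 and 0.54 for S100a13.

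Related genes were counted in lists. Of 10 tested partners of S100 proteins and annexins, 0 were called (limma), against 7.91% of all tested genes, and their median log2 fold change was 0.29. At an unadjusted p under 0.05 there was 1 of the 10, against 3211 of all 13990 tested genes. That 1 gene was Ahnak, the giant scaffold bound by S100a10 and Anxa2, at 19560 ± 1769 in TNFR2+ and 15920 ± 2505 in TNFR2− libraries (log2 fold change 0.31, adjusted p = 0.132). Of 15 other EF-hand calcium sensors 3 were higher and 0 lower, against the 4.52% of all tested genes called higher. They were Efhd2, an actin-binding adaptor (log2 fold change 0.86, adjusted p = 0.00484), Lcp1, the actin bundler L-plastin (0.58, adjusted p = 0.00790), and Chp1, a calcineurin B-like protein (0.84, adjusted p = 0.0446). The groups overlapped in Chp1, with TNFR2− replicate 2 at 337.5 and TNFR2+ replicate 4 at 337.2.

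Galectins act through sugars that glycosyltransferases make and through the glycoproteins that carry them. Of 19 tested enzymes of galectin-binding glycans 1 was higher and 1 lower, against 4.52% and 3.39% of all tested genes, with a median log2 fold change of −0.01. At an unadjusted p under 0.05 there were 9, of which 7 were lower, against 3211 and 1495 of the 13990 tested genes. B3gnt2, which extends poly-lactosamine chains, was at 2006 ± 260 and 1151 ± 105 (log2 fold change 0.80, adjusted p = 0.00287). St3gal6, a sialyltransferase, had 8.04 ± 4.42 and 46.1 ± 5.96 (log2 fold change −2.52, adjusted p = 0.0204). Of 15 galectin counter-receptors 4 were higher and 1 was lower, against 4.52% and 3.39% of all tested genes, with a median log2 fold change of 0.43. The higher genes were Cd44, the hyaluronan receptor (2420 ± 206 and 1274 ± 285, log2 fold change 0.95, adjusted p = 0.00266), the integrin chains Itgal (0.83, adjusted p = 7.33e-04) and Itgb1 (0.77, adjusted p = 0.0259), and the inhibitory receptor Lag3 (2.46, adjusted p = 0.0327). Lag3 was at 541 ± 196 and 146 ± 150, and its groups overlapped, with TNFR2− replicate 3 at 353 and TNFR2+ replicate 4 at 248. The lower gene was Cd7, a receptor of galectin-1 (24.7 ± 18.3 and 94.6 ± 42.0, log2 fold change −2.08, adjusted p = 0.0409).

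Several of the 10 genes are also abundant in myeloid and other cells, so markers of those cells were summed per library. Myeloid markers (9 of 20 in the table) summed to 227 to 343 normalized counts in TNFR2+ and 255 to 328 in TNFR2− libraries. B cell markers (8 of 10) summed to 132 to 208 and 108 to 295, and erythroid and platelet markers (2 of 11) to 12.2 to 222 and 41.8 to 178. These ranges overlapped. Cytotoxic lymphocyte markers (7 of 10) summed to 222 to 364 and 134 to 287, which also overlapped. Of 5 tested genes of this list 1 was called higher and 0 lower, against 4.52% and 3.39% of all tested genes. The called gene was Nkg7, at 64.3 ± 19.3 in TNFR2+ against 7.83 ± 7.29 in TNFR2− libraries (log2 fold change 3.19, adjusted p = 0.00928 from limma). Prf1, the 1 tested gene of the list with a fold change below 0, was at 6.92 ± 3.91 against 23.4 ± 18.2 (log2 fold change −1.09, adjusted p = 0.572). Stromal and endothelial markers (6 of 10) summed to 920 to 1532 and 2176 to 3220, mostly Pecam1, which was lower (log2 fold change −1.18, adjusted p = 0.00344). Pecam1 was at 1088 ± 287 in TNFR2+ and 2475 ± 615 in TNFR2− libraries, while Cdh5 and Kdr of the same list were at no more than 22.1 in any library. The sum thus follows Pecam1, and whether stromal or endothelial cells differed between the groups was not tested. In TNFR2− replicate 3, the library that stood apart, Col1a1 was at 426 and Cdh5 at 22.1, against at most 7.07 and 3.89 in the other 7 libraries, and Kdr was also highest there. No marker in the table was at 0 in all libraries, and the part of such cells in the fold changes was not tested. In sorted bulk cells, fewer cells that express a gene and less RNA per cell cannot be told apart.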

How the data were processed

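RNA of sorted TNFR2+ and TNFR2− splenic Tregs (4 libraries each, grouped by their labels) was sequenced by the authors from stranded total RNA libraries. The authors trimmed the reads, quantified them with salmon 1.3.0 (transcripts of Ensembl, GRCm38) and normalized gene values with DESeq2 1.28. The deposited signal is therefore a normalized count per gene, not a whole read, and the summing of transcripts and any gene filter are not given in the sources used here. Depth in reads was not used, and the number of libraries limits the precision.

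Symbols, positions and transcript lengths came from GENCODE M21 (20008 of 20172 identifiers matched). Genes with a mean of at least 10 were tested on log2(value + 1) with limma 3.58.1 in R 4.3.3 (intensity trend, two-sided, Benjamini-Hochberg adjustment over 13990 genes, threshold 0.05). Fold changes are differences of mean values on this scale. For low genes they depend on the pseudocount and can differ from the log2 ratio of the group means. Single ratios were tested by exact permutation, whose smallest p is 0.0286. Copies were searched with blastn 2.17.0, and promoters came from RefSeq. The procedure was tested on simulated data with a common spread for all genes and no library effects. That test does not cover genes with a wider spread or a library that stands apart.

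The genes and lists were chosen with earlier results of these data known. Named were all 10 genes, the other family genes of the table, called genes of the related lists and each gene's nearest profile. Ahnak, Gm4858, Nkg7, Pecam1 and the motifs were picked with their values in view. Alternatives covered pseudocounts, filters, trend, scaling, library weights, the replicate block and each library left out. The labels do not say whether replicate numbers pair the libraries.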

Additional observations from a re-analysis of the deposited data

How the results depend on the processing

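The count of 5 genes higher fell to 2 (S100a6 and S100a10) without the intensity trend and stayed within 4 to 5 under the other 9 settings that kept all libraries. It ranged from 3 to 5 when a library was left out, with 3 (S100a6, S100a10 and S100a11) without TNFR2+ replicate 1, 2 or 3 or TNFR2− replicate 1 or 2. The count of genes lower was 0 in every setting run. All tested genes called, 1107, fell to 465 without the trend and ranged from 636 to 1324 with a library left out. Without the trend the adjusted p was 0.0758 for S100a11, 0.0894 for Anxa2 and 0.122 for Lgals1. Among uncalled genes, leaving out a library turned the sign of the log2 fold change of S100a4 (range −0.12 to 0.59), S100a13 (−0.13 to 0.29) and Anxa5 (−0.18 to 0.0946), and of the log2 ratio of S100a10 to Anxa2 (−0.323 to 0.0743). Lgals3 could not be tested with a minimum mean of 50.

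The labels do not say whether a replicate number pairs the libraries, and the correlations of same-numbered deviations lay between −0.0386 and 0.000542, which gave no hint of pairing. With the replicate block 4 of the 10 genes and 1183 of all genes were called, and Lgals1 was at an adjusted p of 0.0612. The 4 ratios added after seeing the data kept their sign in each setting run.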
